A study of Mus musculus with 12 samples.

Results

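The interaction of the mother's and the offspring's diet was measured in mouse samples labelled as aortic endothelial cells, the cells that line the aorta, as a difference of differences. It was the contrast (WD_WD minus CD_WD) minus (WD_CD minus CD_CD) on log2 values, computed from 12 of the 12 libraries and for 10655 of the 10655 genes in the table. The libraries came from SMART-seq, which reads RNA along its full length, and fell into 4 groups of 3. CD was the control diet and WD the Western diet. CD_CD stands for CD offspring of CD mothers, WD_CD for CD offspring of WD mothers, CD_WD for WD offspring of CD mothers and WD_WD for WD offspring of WD mothers. Titles join 2 diets without saying whose they are, and the one written first was taken for the mother's because the series text names the groups in that order. Both WD offspring groups had been given WD again for 4 weeks. For genotype, strain, sex, age, sorting and batch the labels hold no entry. Nor do the labels say that the replicates were separate animals, so the p-values measure the spread between these libraries, which may be technical.

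A positive interaction means that WD mothers went with a higher level in WD offspring, relative to CD mothers, than in CD offspring. The same number is also the effect of the offspring's WD with WD mothers minus that with CD mothers. In an artery wall under high blood lipids, endothelial cells display adhesion molecules and chemokines that recruit monocytes, and the monocytes turn into macrophages that take up and export cholesterol. The series title concerns a maternal high-fat diet and atherosclerosis in offspring, so the interaction addresses whether a diet of the mother alters the response to a later diet of her offspring.

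Reads in the tabled genes numbered 10667657 to 19670570 per library of CD offspring and 4074413 to 18013966 per library of WD offspring. After the authors' scaling 1 read was worth 0.347 to 0.669 normalised counts for CD offspring and 0.861 to 3.96 for WD offspring, so low genes were measured more coarsely in the latter. Between 0 and 463 genes per library had no reads. The 26 measured of 28 pan-endothelial genes summed to 88109 to 140712 normalised counts in the libraries of CD offspring, and to 4021 to 58708 in CD_WD and 17837 to 30146 in WD_WD. The 27 measured of 29 macrophage and monocyte genes summed to 15647 to 133506 in CD offspring, 90910 to 723260 in CD_WD and 735473 to 1341687 in WD_WD. In all 6 libraries of WD offspring the macrophage sum exceeded the endothelial sum, neither being scaled by gene length, so the markers there go against a purely endothelial sample. In WD_CD too the highest macrophage sum, 133506, exceeded the highest endothelial sum, 122991, so at least 1 library there had that order. In CD_CD the macrophage sums reached 39147 and the endothelial sums began at 112931. Of the endothelial genes only Robo4 had a 0 in any library, in WD_WD. CD_WD replicate 1 stood apart, with a mean log2 level of the endothelial genes of 6.18, against 9.65 and 10.19 in its group. In bulk RNA, fewer cells of a type and less RNA per cell cannot be told apart.

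No gene passed an adjusted p under 0.05 for the interaction, which is 0% of the 10655 genes tested with limma. The smallest adjusted p was 0.997 and the smallest unadjusted p 0.000261, both for Abi3bp, the gene of an extracellular matrix protein. At an unadjusted p under 0.05 stood 342 genes, or 3.21%, where 5% is the share that the threshold itself allows. Of these, 186 (1.75%) were positive and 156 (1.46%) negative. Over all genes the interaction was positive in 5410, or 50.8%, with a median of 0.02 log2.

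These data bound the interaction loosely. Its standard error had a median over genes of 0.94 log2, against 0.66 for the effect of 1 diet at a fixed level of the other, and its 95% interval reached a median of 2.03 log2 to each side. For 66 genes (0.619%) the interval lay wholly between -1 and 1 log2, and for 3013 (28.3%) between -2 and 2. The fitted interaction itself lay beyond 1 log2 in size in 3393 genes (31.8%) and beyond 2 in 1180 (11.1%). Replicates differed least in CD_CD, where the SD of a gene over 3 libraries had a median of 0.43 log2, and most in WD_WD, where it was 0.72. WD_CD lay at 0.60 and CD_WD at 0.66.

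Other tests gave few calls. The quasi-likelihood test of edgeR on the recovered reads called 0 genes, with 306 at an unadjusted p under 0.05, limma-voom called 0, and DESeq2 called 10, of which 5 were positive and 5 negative. Weighting libraries by their spread left Abi3bp as the 1 call, at an adjusted p of 0.0243. The 10 genes that DESeq2 called were Car2, Ung, Hinfp, Trem1 and Dusp14 upward and Abi3bp, Zbtb8a, Figf, Ift80 and Spats2l downward. Each of the 10 had 3 reads or fewer in at least 1 library. Dusp14 is named here after its values were seen.

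The response to the offspring's diet was large with either kind of mother. With CD mothers 1008 genes rose (9.46%) and 591 fell (5.55%), and with WD mothers 1516 rose (14.2%) and 1088 fell (10.2%). Across genes, which are not independent replicates, both effects had a Pearson's r of 0.763 and a Spearman's rho of 0.755, and 79.6% of genes had the same sign in both. The 2 effects share no library. The first count was 698 without CD_CD replicate 1 and 705 without CD_CD replicate 2, in place of 1599. The second was 1593 without WD_CD replicate 2 and 1723 without WD_CD replicate 3, in place of 2604. Under upper-quartile scaling the split was 859 risen and 710 fallen with CD mothers, and 1305 and 1330 with WD mothers. With libraries weighted by their spread the order turned, at 4241 calls with CD mothers and 2319 with WD mothers. That fit leaned on 1 library, since CD_WD replicate 2 had a weight of 6.43 and the others 0.24 to 2.39. The estimation of the weights also stopped before it converged.

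A total of 1236 genes were called with both kinds of mother, 77.3% of those called with CD mothers and 47.5% of those called with WD mothers, all in the same direction with both. In addition 363 were called with CD mothers alone and 1368 with WD mothers alone, although with library weights the calls with CD mothers outnumbered those with WD mothers. Being called with 1 kind of mother did not amount to an interaction. Among the 1368 genes the median effect, signed by that with WD mothers, was 2.41 log2 with WD mothers and 1.15 with CD mothers. Of the 1368, 180 had an unadjusted interaction p under 0.05, where 3.21% of all genes had one, and 0 passed after adjustment. Among the 363 the corresponding medians were 1.20 with WD mothers and 2.35 with CD mothers, and 28 had such a p. In the 1236 genes called with both the medians were 2.48 and 2.33, and 20 had such a p. The interaction is the difference of the effects that chose these sets, so the counts describe the sets and test nothing.

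**Figure D1:**
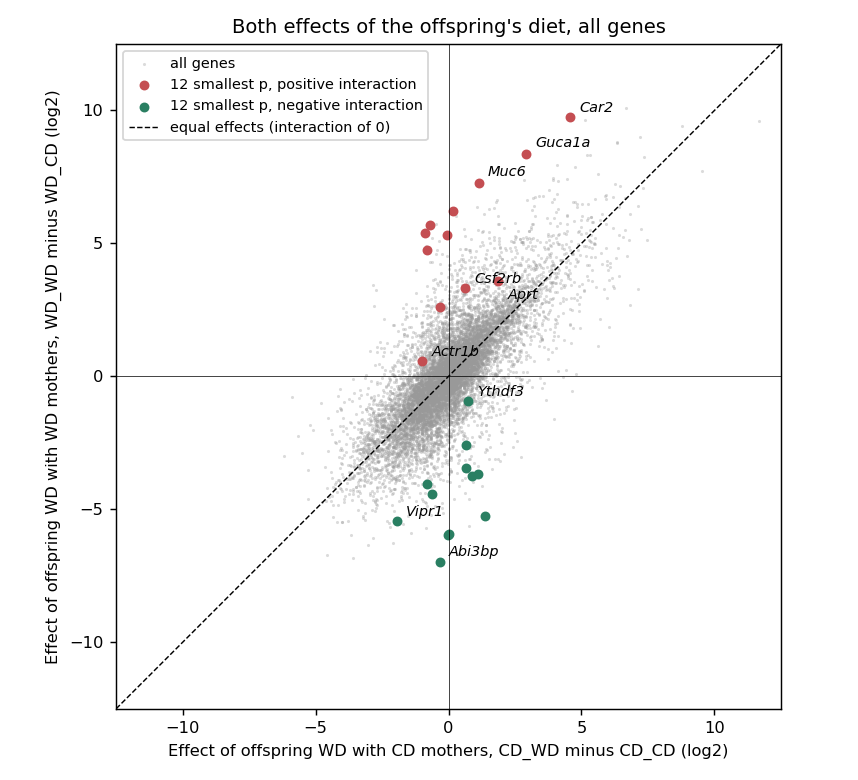
Effect of the offspring's WD on each gene with CD mothers (x axis, CD_WD minus CD_CD, log2) and with WD mothers (y axis, WD_WD minus WD_CD, log2); grey points are all 10655 genes, coloured points the 24 genes with the smallest interaction p. The cloud lies along the dashed line of equal effects (r = 0.763), and the distance of a point from that line is its interaction.

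Among the 342 genes at an unadjusted p under 0.05, 320 (93.6%) had effects of the mother's diet of opposite sign in CD and WD offspring, against 48.3% of all genes. The effect was larger in WD offspring in 214 and larger in CD offspring in 128. Since these genes were taken for their interaction, the shares describe them and test nothing. By the form of the contrast, a positive interaction goes with low levels in WD_CD or CD_WD. WD_CD was the lowest group in 135 of the 186 positive genes and CD_WD in 47. WD_WD was the lowest group in 124 of the 156 negative genes and CD_CD in 32. Which group was lowest also depends on which genes the table holds. The table held 0 genes without reads in CD_CD replicate 3 and 1 in CD_WD replicate 3. In the other libraries 12 to 463 genes had no reads. A gene without reads throughout CD_CD could thus not appear, and for CD_WD at most 1 could. Of the 342 genes, 123 (36.0%) had a library with 3 reads or fewer, against 22% of all genes.

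The 24 named genes with the smallest p, 12 in each direction, had interactions of 1.55 to 6.38 log2 upward and -6.65 to -1.69 downward, and none passed after adjustment. In 11 of the 12 upward genes WD_CD was the lowest group, and in 11 of the 12 downward genes it was WD_WD. Of the upward genes 7, and of the downward genes 9, had a library with 3 reads or fewer. With WD mothers, 11 of the upward genes rose and 11 of the downward genes fell in WD offspring, where 14.2% and 10.2% of all genes did. With CD mothers 2 rose (Car2 and Aprt) and 0 fell, where 9.46% and 5.55% of all genes did. These counts enter the interaction that chose the genes and describe them only. The lowest group also depends on which genes the table holds, as given above.

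Car2, carbonic anhydrase II, which interconverts carbon dioxide and bicarbonate, lies on GRCm38 chromosome 3 from 14886269 to 14900770. It stood at 14.9, 28.6 and 53.2 normalised counts in CD_CD and at 0.424, 0 and 0 in WD_CD. In CD_WD the values were 479, 1211 and 580.2, and in WD_WD 390.4, 1024 and 2201. Car2 was thus almost without reads in CD offspring of WD mothers, while both groups of WD offspring overlapped at a high level. WD_CD held 1 read in all, and the ratio of CD_CD to WD_CD for that read, weighted by depth, was 199 with a 95% counting interval of 35.4 to 7899. The interaction was 5.17 ± 1.14 log2 (SE; 95% interval 2.70 to 7.64), at a limma adjusted p of 0.997. In the authors' deposited table the effect of the mother's diet on Car2 was -7.54 log2 in CD offspring, at an adjusted p of 5.15e-05, and 0.67 in WD offspring, at 0.841. The limma adjusted p of the former effect was 0.665. In limma 0 of the 10655 genes (0%) passed for the mother's diet in CD offspring, and 0 in WD offspring.

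Ung, the uracil DNA glycosylase of base excision repair, had 108, 42.1 and 28.8 normalised counts in CD_CD and 0, 0.398 and 0 in WD_CD. In WD offspring it stood at 122, 33.5 and 44.8 in CD_WD and at 82.2, 53.1 and 127 in WD_WD. Hinfp, a transcription factor of histone H4 genes, had the same arrangement, with 99.2, 57.6 and 37.7 in CD_CD, 0.848, 0 and 0 in WD_CD, and between 12.1 and 76.1 in CD_WD. Its lowest value in WD_WD was 48.5. Both genes were near 0 in 1 group and overlapped in the other groups. The interaction was 6.06 ± 1.47 log2 for Ung and 6.38 ± 1.56 for Hinfp (limma adjusted p = 0.997 for both). Their ratios of CD_CD to WD_CD rest on 1 and 2 reads in WD_CD, at 397 (95% counting interval 70.9 to 15700) and 212 (58.5 to 1757).

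Guca1a, an activator of guanylate cyclase best known from photoreceptors, stood at 33.7, 33.5 and 24.3 normalised counts (CD_CD), 0, 8.37 and 0 (WD_CD), 83.7, 429 and 365 (CD_WD) and 935, 672 and 519 (WD_WD). Its libraries of WD mothers lay below those of CD mothers in CD offspring and above them in WD offspring, with an interaction of 5.43 ± 1.39 log2. Csf2rb, the receptor chain shared by interleukin 3, interleukin 5 and GM-CSF, showed that crossing at levels well above the counting limit. It had 325, 269.7 and 327 (CD_CD), 268, 86.1 and 62.2 (WD_CD), 259, 663 and 612 (CD_WD) and 963, 1447 and 1053 (WD_WD), and an interaction of 2.70 ± 0.76 log2 (95% interval 1.05 to 4.34). Its separation in CD offspring was narrow, since the nearest libraries stood at 269.7 (CD_CD) and 268 (WD_CD).

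Aprt, the adenine phosphoribosyltransferase of purine salvage, rose in WD offspring with both kinds of mother, by 1.88 log2 with CD mothers (limma adjusted p = 0.00541) and by 3.57 with WD mothers (adjusted p = 0.000211). Its levels were 301, 455 and 375 (CD_CD), 518, 199 and 302 (WD_CD), 1202, 1341 and 1581 (CD_WD) and 4148, 4201 and 3049 (WD_WD). Both CD offspring groups overlapped, and every WD_WD library exceeded every CD_WD library. Its interaction of 1.70 ± 0.51 log2 was a difference in the size of a rise, not in its direction. The others were Lrp12 (an LDL receptor-related protein, 6.30), Muc6 (a gel-forming mucin, 6.11), Atg4c (an autophagy protease, 5.59), Mrs2 (a magnesium channel of mitochondria, 5.37), Fuom (a fucose mutarotase, 2.92) and Actr1b (an actin-related protein of dynactin, 1.55), each given with its interaction in log2.

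Abi3bp, on GRCm38 chromosome 16 from 56477801 to 56690135, had the smallest p of all genes. Its levels were 338, 721 and 542 normalised counts in CD_CD, 498, 556 and 366 in WD_CD and 112, 1084 and 559.5 in CD_WD. In WD_WD they were 0, 3.03 and 11.9. The first 3 groups overlapped and every WD_WD library lay below all the rest. The interaction was -6.65 ± 1.33 log2 (95% interval -9.53 to -3.77). With WD mothers Abi3bp fell by 6.97 log2 in WD offspring (limma adjusted p = 0.000641), while the change with CD mothers was -0.32 (adjusted p = 0.867). The authors' deposited table gives -7.14 log2 for the mother's diet in WD offspring (adjusted p = 4.75e-11) and -0.17 in CD offspring. In limma the former effect did not pass (adjusted p = 0.0836). Abi3bp is also 1 of the 19 measured genes of fibroblasts and adventitia, and the summed level of those genes was 21023 to 59185 in WD_WD against 30106 to 195454 in CD_WD. The part of those cells in the result was not tested.

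Zbtb8a, a zinc finger gene, and Figf, which encodes the lymphatic growth factor VEGF-D, had the same form. Zbtb8a stood at 14.9, 103 and 70.2 (CD_CD), 103, 132 and 126 (WD_CD), 190.1, 94.2 and 113 (CD_WD) and 2.57, 0 and 7.92 (WD_WD). Figf stood at 68.0, 116 and 49.5 (CD_CD), 222, 64.2 and 84.3 (WD_CD), 27.9, 138 and 101 (CD_WD) and 0, 4.55 and 0 (WD_WD). WD_WD held 3 reads of either gene in all. The ratio of CD_WD to WD_WD was 53.5 (95% counting interval 18.1 to 261) for Zbtb8a and 41.4 (13.95 to 202) for Figf. Their interactions were -6.63 ± 1.45 and -5.92 ± 1.51 log2.

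Vipr1, a receptor of vasoactive intestinal peptide, fell by 5.45 log2 in WD offspring with WD mothers (limma adjusted p = 0.000681). It had 182, 255 and 325 (CD_CD), 273, 353 and 502 (WD_CD), 104, 25.1 and 101 (CD_WD) and 10.3, 3.03 and 11.9 (WD_WD), with an interaction of -3.52 ± 1.05 log2. Among the remaining downward genes, Ift80 (intraflagellar transport) had -4.61, Fam179b (the ciliary gene Togaram1) -3.25, Apex2 (an AP endonuclease) -4.77 and Paxip1 (a DNA damage response protein) -3.24 log2. Abhd14a had -5.95, Tmem241 -4.11 and Spats2l -3.82 log2.

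Ythdf3, a reader of N6-methyladenosine in RNA on GRCm38 chromosome 3 from 16183148 to 16217037, was the exception among the downward genes, since its lowest group was CD_CD. It stood at 172, 185 and 197 (CD_CD), 593, 585 and 472 (WD_CD), 289, 322 and 322 (CD_WD) and 301, 193 and 396 (WD_WD). CD offspring of WD mothers lay above all the other libraries, while both WD offspring groups overlapped. The interaction was -1.69 ± 0.52 log2 (95% interval -2.82 to -0.57). The authors' deposited table gives 1.58 log2 for the mother's diet in CD offspring (adjusted p = 0.0011) and -0.09 in WD offspring. In limma the former effect did not pass (adjusted p = 0.9998).

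**Figure D2:**
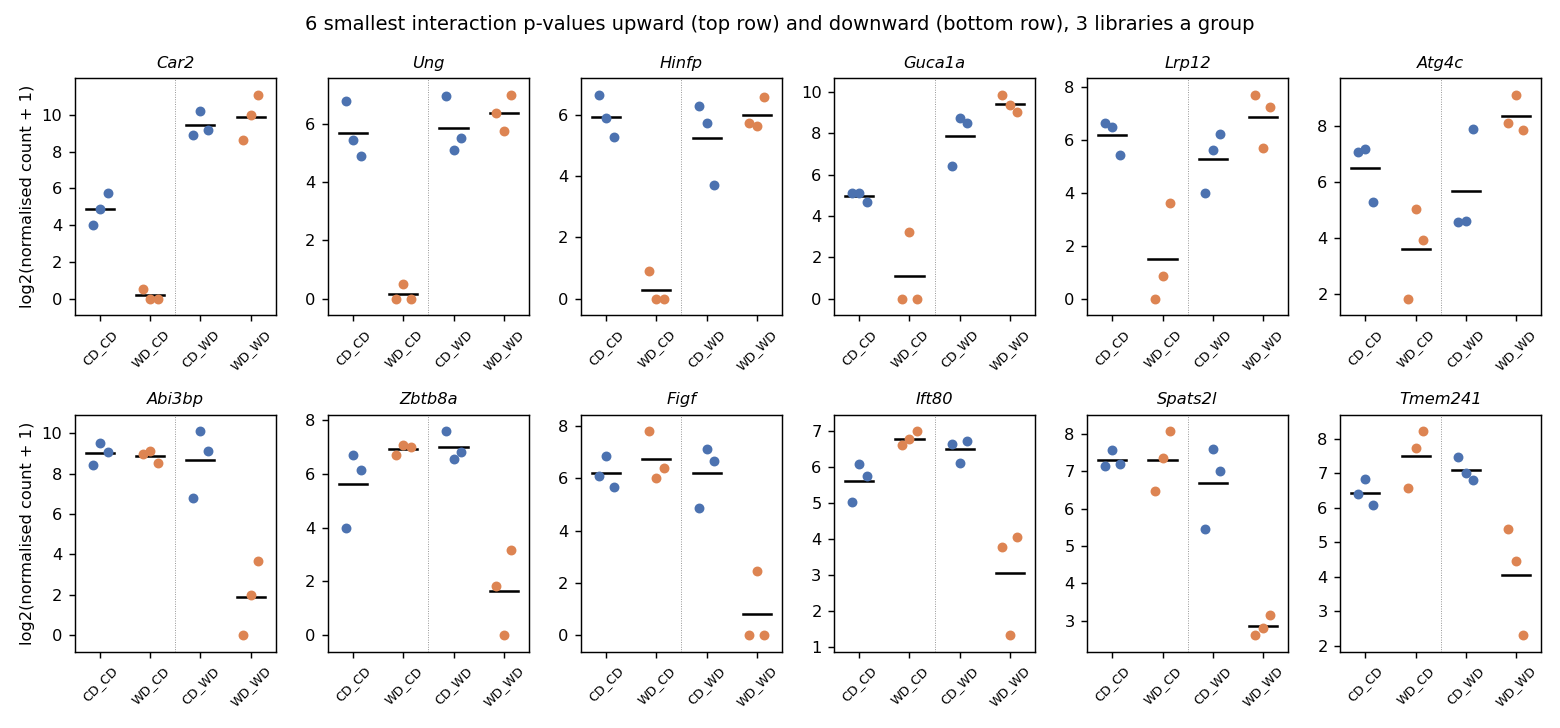
Levels as log2(normalised count + 1) in the 12 libraries for the 6 named genes with the smallest upward (top row) and downward (bottom row) interaction p; points are libraries (blue, CD mothers; orange, WD mothers), black bars group means, and the dotted line separates CD from WD offspring. In all 6 upper panels WD_CD lies lowest, and in all 6 lower panels WD_WD lies lowest.

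A stricter description asks that the 3 libraries of WD mothers lie wholly above those of CD mothers with 1 offspring diet and wholly below with the other. Such a crossing was found in 41 genes (0.385%), of which 33 had an unadjusted interaction p under 0.05. The rule itself favours a small interaction p, so that count tests nothing. In 22 (0.206%) WD mothers lay higher in WD offspring, and in 19 (0.178%) lower. For comparison, the libraries of both kinds of mother were apart in the same direction with both offspring diets in 52 genes (0.488%), in CD offspring in 945 (8.87%) and in WD offspring in 1067 (10%). Crossings were thus no more frequent than separations in the same direction.

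Of the crossed genes with WD mothers higher in WD offspring, Ppp1r10, a regulatory subunit of protein phosphatase 1, had 655, 439.7 and 691 (CD_CD), 398, 372 and 404 (WD_CD), 357, 713 and 535 (CD_WD) and 904, 1089 and 986 (WD_WD). Its interaction was 1.52 ± 0.47 log2 (95% interval 0.49 to 2.54). Actr1b had 719, 769.5 and 579 (CD_CD), 471, 531 and 405 (WD_CD), 266, 402 and 386 (CD_WD) and 527, 919 and 685 (WD_WD). The lowest of these 24 values was 266 normalised counts, far from 0. Rangrf, a Ran-binding protein, was listed at 0 in 2 of the 3 WD_CD libraries, with 73.7 in the other, and had an interaction of 6.20 ± 1.93 log2.

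In the other direction stood Fkbp5, a co-chaperone of the glucocorticoid receptor that glucocorticoids induce. It had 267, 302 and 345 normalised counts (CD_CD), 551, 483 and 786 (WD_CD), 226, 458 and 189 (CD_WD) and 177, 153 and 162 (WD_WD). With WD mothers it fell by 1.85 log2 in WD offspring (limma adjusted p = 0.00772), with CD mothers it changed by -0.17 (adjusted p = 0.835), and the interaction was -1.68 ± 0.58 log2 (95% interval -2.94 to -0.42). Ubtf, a transcription factor of RNA polymerase I, had 479, 425 and 680.0 (CD_CD), 688, 723 and 707 (WD_CD), 725, 475 and 516 (CD_WD) and 357, 269.9 and 158 (WD_WD). In CD offspring its nearest libraries were close, at 680.0 (CD_CD) and 688 (WD_CD). Ubtf too fell by 1.50 log2 in WD offspring with WD mothers (adjusted p = 0.0129), with an interaction of -1.62 ± 0.53. Ankrd27, which takes part in endosomal trafficking, Zfp740, a zinc finger gene, and Ddx26b, a relative of an Integrator subunit, had -2.29, -2.62 and -2.85 log2.

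**Figure D3:**
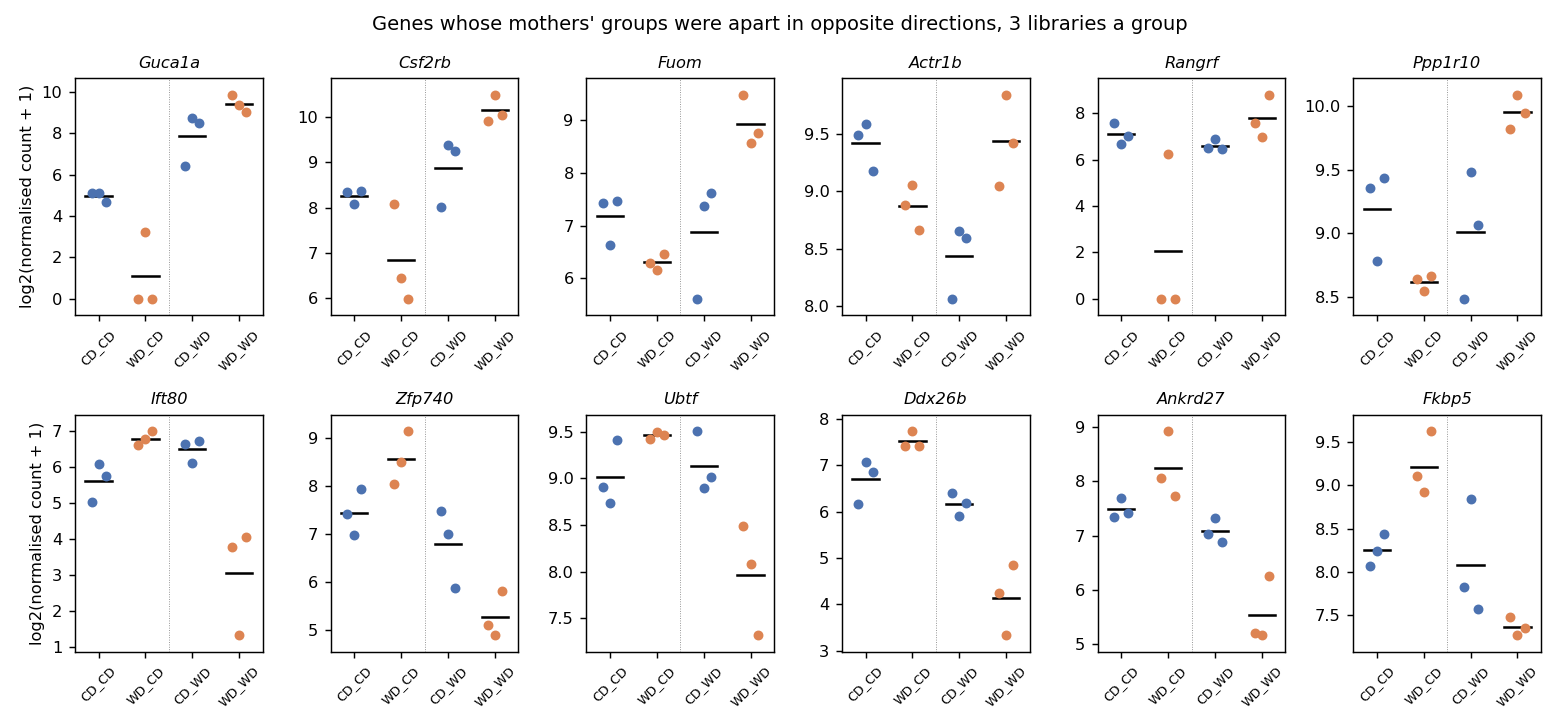
Levels as log2(normalised count + 1) in the 12 libraries for 12 of the 41 crossed genes, 6 with WD mothers higher in WD offspring (top row) and 6 with WD mothers lower (bottom row); points are libraries (blue, CD mothers; orange, WD mothers) and black bars group means. Orange and blue points do not overlap on either side of the dotted line and change places across it, by the rule that chose them.

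Gene lists for cell types and pathways were described by the median interaction of their measured members and by how many were positive, beside a median of 0.02 and 50.8% positive over all genes. No member of any of the 33 lists passed for the interaction. The median kept its sign under all 26 alternatives in 14 lists and turned in 19. The 14 were those of MHC class I and II, lipid-laden macrophages, smooth muscle, fibroblasts, striated muscle, cholesterol efflux, cholesterol synthesis, fatty acid uptake, glycolysis, NRF2, heat shock, the clock and the cell cycle. The lists are no independent evidence, and members that share a cell type move together from library to library.

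The endothelial programme had an interaction near 0 that turned on 1 library. The 26 pan-endothelial genes had a median of 0.21 log2, 15 positive and 11 negative, with 0 at an unadjusted p under 0.05. Without CD_WD replicate 1 the median was -0.99, and without CD_WD replicate 3 it was 1.01. In WD offspring 11 of the 26 fell with CD mothers and 13 with WD mothers, with median effects of -2.75 and -2.62, where 5.55% and 10.2% of all genes fell. Eng, a TGF-beta co-receptor of endothelial cells, had 6430.1, 6822 and 5667 (CD_CD), 3479, 5793 and 3663 (WD_CD), 117, 1184 and 1808 (CD_WD) and 1289, 855 and 574 (WD_WD). Its interaction was 1.03 ± 1.08 log2, and -0.18 without CD_WD replicate 1. Erg, an endothelial transcription factor, had 1.11 ± 1.25 log2.

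Genes of arterial identity and Notch signalling followed, with 14 measured and a median interaction of 0.25 (8 positive), which was -0.70 without CD_WD replicate 1. The Notch ligand Jag1 fell in WD offspring with both kinds of mother, at -2.86 and -3.82 log2 (limma adjusted p = 0.0052 and 0.000823), with an interaction of -0.96 ± 0.78. For Rbpj, the transcription factor through which Notch acts, the 95% interval ran from -0.49 to 2.74. The 16 genes of the laminar flow response had a median of 0.12, with 9 positive, and was -0.79 without CD_WD replicate 1, -0.11 without WD_WD replicate 1 and -0.07 without CD_CD replicate 2. Klf2, the factor that laminar flow induces, rose in WD offspring with CD mothers by 1.55 log2 (adjusted p = 0.0168), and its change of 0.94 with WD mothers had an adjusted p of 0.0862. The difference between these effects was -0.61 ± 0.53 log2, so the calls differed where the interaction did not pass. Nos3, the endothelial nitric oxide synthase, had an interaction of 0.44 ± 1.06 and Klf4 of -0.05 ± 0.85.

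Leukocyte adhesion molecules and chemokines, the genes by which endothelium recruits monocytes, had a median interaction of 0.20 over 15 genes, 10 of them positive. That median was -0.94 without CD_WD replicate 1. Vcam1, which binds monocytes and lymphocytes, stood at 5706, 10556 and 4915 (CD_CD), 5434, 11139 and 9260.4 (WD_CD), 489, 7199.8 and 17714 (CD_WD) and 3963, 6127 and 5927 (WD_WD). The 4 groups overlapped and the interaction was 0.09 ± 1.35 log2 (95% interval -2.82 to 3.01), or -1.41 without CD_WD replicate 1. Icam1 had -0.14 ± 1.00 and Sele, E-selectin, -0.35 ± 1.72. The junctional and adhesion genes Mcam and Jam3, the smallest p of the list, had 1.31 ± 1.12 and 1.05 ± 0.95.

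Ccl2, the chemokine that attracts monocytes, rose in WD offspring with both kinds of mother, by 3.74 log2 with CD mothers (limma adjusted p = 0.0237) and by 5.27 with WD mothers (adjusted p = 0.00308). Its levels were 583, 647 and 263 (CD_CD), 1443, 158 and 348 (WD_CD), 1088, 11290.4 and 19416 (CD_WD) and 11636, 32188 and 12247 (WD_WD). The groups of both kinds of mother overlapped within each offspring diet, and the interaction of 1.53 ± 1.39 log2 (95% interval -1.48 to 4.53) did not exceed the spread between libraries.

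Transcription factors of the AP-1 family and other immediate early genes, which switch on within minutes of a stimulus, were at similar interactions of either sign. Of the 25 measured, 14 were positive and 11 negative, with a median of 0.46 log2 and 0.02 without CD_WD replicate 1. In WD offspring 6 of the 25 rose with CD mothers and 7 with WD mothers, where 9.46% and 14.2% of all genes rose, and 0 fell. Nr4a2, an orphan nuclear receptor, had 456, 277 and 346 (CD_CD), 361, 761 and 104 (WD_CD), 355, 481 and 583 (CD_WD) and 1143, 2122 and 1318 (WD_WD). All 3 WD_WD libraries exceeded the others, and Nr4a2 rose with WD mothers by 2.26 log2 (limma adjusted p = 0.0158). With CD mothers its change was 0.40 (adjusted p = 0.713), and the interaction was 1.87 ± 0.83 (95% interval 0.07 to 3.66).

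The Jun genes lay on the negative side. Jund rose in WD offspring with CD mothers by 1.87 log2 (limma adjusted p = 0.0101), its change with WD mothers was 0.72 (adjusted p = 0.213), and its interaction was -1.15 ± 0.58. Junb and Jun had interactions of -1.15 ± 0.74 and -0.61 ± 0.56. For Fos the value was -0.41 ± 0.89 and for Egr1 -0.78 ± 0.56, while Fosl2 (0.38 ± 0.61), Atf3 (1.10 ± 1.17) and Atf4 (0.89 ± 0.45) were positive. Batf, an AP-1 factor of leukocytes, rose with both kinds of mother, by 2.96 and 3.42 log2 (adjusted p = 0.00352 and 0.00118), with an interaction of 0.46 ± 0.74. Dusp1, the phosphatase that shuts off MAP kinases, had -0.31 ± 0.71. None of these values passed, and the intervals of all 3 Jun genes include 0.

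The 26 genes of NF-kB and interleukin 1 had a median interaction of 0.21, with 14 positive, and -0.03 without WD_WD replicate 2. Tnip1, an inhibitor of NF-kB, had -1.69 ± 0.67 log2 (95% interval -3.15 to -0.23), and Bcl3, a regulator of the pathway, -1.26 ± 0.67. In the 39 interferon-induced genes the median was -0.00, with 19 positive, and 3 of them, all positive, had an unadjusted p under 0.05 (1.75% of all genes in that direction). Mx2, an antiviral GTPase, had 49.3, 17.2 and 18.7 (CD_CD), 19.1, 8.77 and 0.669 (WD_CD), 22.8, 27.2 and 67.1 (CD_WD) and 92.5, 183 and 396 (WD_WD). It rose in WD offspring with WD mothers by 4.78 log2 (limma adjusted p = 0.00968), against a change of 0.45 (adjusted p = 0.839) with CD mothers, and its interaction was 4.33 ± 1.57. Ifih1, the RNA sensor MDA5, rose with WD mothers by 2.58 log2 (adjusted p = 0.0159) and had an interaction of 2.72 ± 0.95. The list as a whole had no common direction, and its median ran from -0.48 to 0.31 with 1 library left out.

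Myeloid lists had positive medians, at 0.65 in the 27 macrophage and monocyte genes (19 positive), 1.49 in the 23 genes of lipid-laden macrophages (20 positive) and 0.72 in the 14 neutrophil genes (11 positive). Without WD_CD replicate 2 these medians were -0.24, 0.04 and -0.14, and without CD_WD replicate 1 that of the macrophage genes was -0.06. Fabp5, a fatty acid binding protein of lipid-laden macrophages, rose with both kinds of mother, by 3.91 and 6.56 log2 (limma adjusted p = 0.00735 and 0.000415). It had 626, 1479.8 and 1180.3 (CD_CD), 2233, 406 and 1417 (WD_CD), 3752, 21271 and 46505 (CD_WD) and 113694, 112250.1 and 84435 (WD_WD). CD offspring overlapped, every WD_WD library exceeded every CD_WD library, and the interaction was 2.65 ± 1.14 (95% interval 0.18 to 5.12).

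Ctsl, the protease cathepsin L, had an interaction of 2.62 ± 1.35 log2, and Fcgr1, an Fc receptor, 3.30 ± 2.12 log2. Trem1, a receptor of neutrophils and monocytes, was listed at 0 in all 3 WD_CD libraries and at 8.67, 15.1 and 9.74 in CD_CD. In CD_WD it had 167, 937 and 442 and in WD_WD 231, 2781 and 792. Trem1 rose with both kinds of mother and had an interaction of 4.53 ± 1.42 log2. In CD offspring it had 86 reads with CD mothers and 0 with WD mothers, and the lower limit of the 95% counting interval of that ratio, weighted by depth, was 18.6. The neutrophil alarmin gene S100a8 had -2.07 ± 2.22.

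Lymphoid and antigen presentation lists had negative medians, and no difference between these and the myeloid lists was tested. The 18 genes of T and NK cells had a median of -0.57 (4 positive) and the 10 of B cells -1.08 (3 positive), and without CD_WD replicate 1 these were 0.45 and 0.17. Without WD_CD replicate 1 the B cell median was 0.72, and without CD_CD replicate 2 that of T and NK cells was 0.30. Ccl5 had an interaction of -0.71 ± 0.72, Il7r -1.44 ± 1.33, Cd79b -4.14 ± 2.88 and Ebf1 -1.57 ± 1.10. The 12 genes of MHC class II presentation had -1.17 (2 positive), and -0.16 without CD_WD replicate 1. Cd74, the invariant chain, had 2280269.6, 470924 and 407477 in CD_WD and 536939, 353906 and 186348 in WD_WD, against 5767 to 43791 in CD offspring, and an interaction of -1.86 ± 1.28. H2-Ab1, a class II chain, had -1.79 ± 1.24. The highest Cd74 value was that of CD_WD replicate 1, the library with the lowest endothelial level.

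MHC class I presentation was the 1 list in which every measured gene had the same sign: 13 of 13 were negative, with a median of -0.71 and a range of -0.45 to -0.94 with 1 library left out. In WD offspring 8 of the 13 rose with CD mothers, where 9.46% of all genes rose. With WD mothers 4 rose and 1 fell, where 14.2% and 10.2% of all genes did. H2-K1, a class I heavy chain, had 11039.7, 17423 and 14732 (CD_CD), 16684, 17278 and 17742 (WD_CD), 229050.2, 53652 and 58623 (CD_WD) and 54058, 33115 and 20090.3 (WD_WD). It rose with CD mothers by 2.66 log2 (limma adjusted p = 0.012), its change with WD mothers was 0.94 (adjusted p = 0.265), and its interaction was -1.73 ± 0.85. H2-D1 had -1.26 ± 0.68. The heavy chains are near-identical in parts, so reads may have been split between them. All 13 interactions failed the test, and with libraries weighted by their spread 2 of the 13 were positive and the median was -0.31.

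The smooth muscle list had the largest median interaction of the 33, at 2.17 log2, with 19 of its 20 genes positive and 4 at an unadjusted p under 0.05 (1.75% of all genes were so in that direction). In WD offspring 14 of the 20 fell with CD mothers and 4 with WD mothers, with median effects of -3.50 and -1.80, where 5.55% and 10.2% of all genes fell. None of the 20 passed for the difference between these effects, which is the interaction. The mean log2 level of the list was 10.51, 9.93 and 10.62 (CD_CD), 8.60, 10.40 and 9.25 (WD_CD), 5.04, 7.82 and 7.57 (CD_WD) and 8.21, 7.38 and 7.74 (WD_WD). WD_CD overlapped with CD_CD, and the CD_WD libraries other than replicate 1 overlapped with WD_WD. Without CD_WD replicate 1 the median was 1.00, and with libraries weighted by their spread it was 0.99 with 18 positive.

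Pln, phospholamban, which regulates the calcium pump of muscle, stood at 560.3, 276 and 343 (CD_CD), 201, 235 and 565 (WD_CD), 2.54, 20.9 and 4.30 (CD_WD) and 51.4, 44.0 and 107 (WD_WD). It fell by 5.66 log2 in WD offspring with CD mothers (limma adjusted p = 0.00131), its change with WD mothers was -2.24 (adjusted p = 0.0561), and the interaction was 3.42 ± 1.12. Ppp1r14a, the inhibitor CPI-17 of myosin phosphatase, fell by 1.72 log2 with CD mothers (adjusted p = 0.0291), changed by 0.44 with WD mothers (adjusted p = 0.522) and had 2.16 ± 0.67. For both genes all 3 CD_WD libraries lay below all 3 WD_WD libraries. The summed smooth muscle level ran from 2076 to 17293 normalised counts in CD_WD and from 12505 to 28492 in WD_WD, and the part of such cells in these values was not tested.

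Striated muscle genes followed at 1.58, with 16 of 17 positive and 0.98 to 1.75 with 1 library left out. In WD offspring 0 of the 17 rose and 5 fell with CD mothers, where 9.46% of all genes rose and 5.55% fell. With WD mothers 3 rose and 1 fell, where 14.2% and 10.2% of all genes did. The median effects were -2.16 with CD mothers and -0.97 with WD mothers. Myh1, a myosin heavy chain of a family whose members can share reads, had 9.71, 24.5 and 45.8 (CD_CD), 2.55, 0 and 0 (WD_CD), 96.3, 103 and 42.2 (CD_WD) and 134, 68.2 and 206 (WD_WD), with an interaction of 4.66 ± 1.53. Fbxo32, the ubiquitin ligase atrogin-1, rose with WD mothers by 2.36 log2 (limma adjusted p = 0.00623) and had 1.58 ± 0.71. Myh1 and Fbxo32 thus went against the median effect of the list in WD offspring. Fibroblast and adventitia genes lay opposite, at -1.25, with 18 of 19 negative and medians of -2.60 to -0.51 with 1 library left out. Clec3b, tetranectin, had 58.3, 1442 and 787 in CD_WD and 59.1, 1.52 and 67.3 in WD_WD. It fell by 4.60 log2 with WD mothers (adjusted p = 0.0246) and had an interaction of -4.81 ± 1.86. Clec3b and Abi3bp were the 2 members with an unadjusted p under 0.05, both negative, where 1.46% of all genes were so in that direction.

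Smooth muscle and fibroblast genes, both of the vessel wall, thus had medians of opposite sign in the same libraries. The 34 genes of collagens, laminins and matrix lay between them, at 0.41 with 19 positive, and -0.79 without CD_WD replicate 1. Col15a1 had 3.93 ± 1.72 and Lamb2, which fell with both kinds of mother, -1.35 ± 0.76. Smaller marker lists were the 14 adipocyte genes (0.48, 10 positive), the 5 erythroid and platelet genes (1.02, 4 positive) and the 4 neural and Schwann cell genes (-0.81, 1 positive). The first 2 were -0.64 and -0.13 without CD_WD replicate 1, and the last was 0.05 without WD_WD replicate 2. Pparg had 5.20 ± 1.86 and Plin4 3.96 ± 2.13, both with a WD_CD library at 1 read or none. Pf4, Ppbp, S100b and Egfl8 had 1.02 ± 1.28, 1.64 ± 2.82, -2.09 ± 2.58 and -1.58 ± 1.74.

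**Figure D4:**
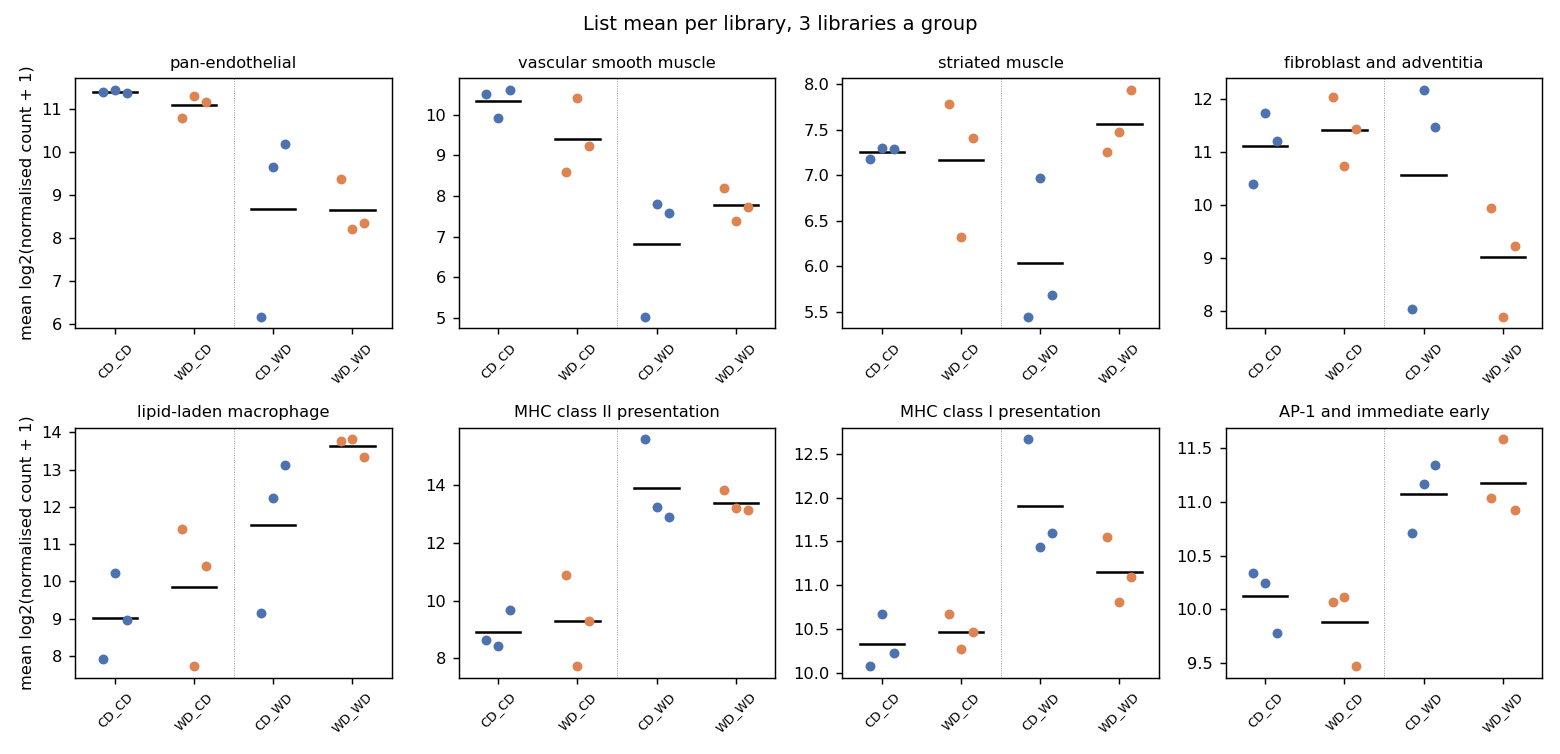
Mean log2(normalised count + 1) of 8 gene lists in the 12 libraries; points are libraries (blue, CD mothers; orange, WD mothers), black bars group means, and each panel has its own scale. In CD_WD the first point, replicate 1, is lowest for endothelial genes (6.18) and smooth muscle genes (5.04) and highest for MHC class II genes (15.58).

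Lists of lipid handling had positive median interactions. Cholesterol taken up by a cell activates LXR, which induces efflux genes, and suppresses SREBP2, which drives synthesis. The 19 LXR and efflux genes had a median of 0.74 (16 positive), the 23 genes of SREBP2 and cholesterol synthesis 0.64 (17 positive) and the 25 genes of fatty acid uptake and PPAR 0.64 (20 positive). With 1 library left out these medians ran from 0.31 to 0.87, 0.29 to 0.87 and 0.26 to 0.93. Efflux and synthesis genes therefore had medians of the same sign. In WD offspring 2 of the 19 efflux genes rose with CD mothers and 5 with WD mothers, and of the 23 synthesis genes 0 and 1, where 9.46% and 14.2% of all genes rose. Of the efflux genes 2 fell with CD mothers and 2 with WD mothers, where 5.55% and 10.2% of all genes fell. Of the synthesis genes 0 fell with either kind of mother. The share of efflux genes that rose with CD mothers was near that of all genes.

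Dhcr7, the last enzyme of cholesterol synthesis in one of its branches, had 97.5, 71.5 and 53.2 (CD_CD), 27.2, 32.3 and 28.8 (WD_CD), 93.8, 29.3 and 79.2 (CD_WD) and 141, 92.5 and 131 (WD_WD). WD_CD lay below CD_CD without overlap, WD_WD and CD_WD overlapped only narrowly, and the interaction was 2.24 ± 0.98 (95% interval 0.12 to 4.36). Acat2, at the start of the pathway, had -2.06 ± 1.09. Npc1, which releases cholesterol from lysosomes, rose with WD mothers by 2.06 log2 (limma adjusted p = 0.0129), changed by 0.82 with CD mothers (adjusted p = 0.309) and had 1.24 ± 0.72. Scd2, a fatty acid desaturase, had 0.95 ± 0.51.

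Energy and housekeeping lists had median interactions close to 0 beside large responses to the offspring's diet. Of 74 respiratory chain genes 54 rose with CD mothers and 61 with WD mothers, and of 77 cytosolic ribosomal protein genes 62 and 63, with 0 falling, where 9.46% and 14.2% of all genes rose. Their median interactions were 0.12 (54 positive) and -0.09 (29 positive), the latter between -0.55 without CD_WD replicate 3 and 0.72 without CD_WD replicate 1. Sdha had 0.69 ± 0.35 and Ndufc2 0.73 ± 0.43. Rps25 (-1.32 ± 1.22) and Rps21 (0.53 ± 0.66) belong to a family with many processed copies in the genome, so their counts are uncertain. Rps25 reached 194862 normalised counts in CD_WD replicate 1 against 8499 and 14235 in its group. The interaction of Rps25 was 0.06 without that library.

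The 30 genes of glycolysis and hypoxia had a median of 0.23 (19 positive). Slc2a1, the glucose transporter GLUT1, had 1.45 ± 0.69 and Egln1, an oxygen sensor, 1.89 ± 0.84. The 26 NRF2 and ferritin genes had 0.43 (19 positive), with Srxn1 at 1.93 ± 1.21 and Tkt at 1.00 ± 0.67. Heat shock and unfolded protein genes had -0.22 over 25 (7 positive). In that list Ddit3, the stress factor CHOP, rose with both kinds of mother, by 2.34 and 3.49 log2 (limma adjusted p = 0.00396 and 0.000393), with an interaction of 1.15 ± 0.60, while Hsf1 had -1.07 ± 0.66.

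Chromatin modifiers, imprinted genes and circadian clock genes had medians from -0.47 to 0.12. The 80 chromatin modifiers had a median of -0.11, with 36 positive, and 2 positive genes at an unadjusted p under 0.05, which is 2 of 80 against 1.75% of all genes. Without CD_WD replicate 1 the median was 0.05. Smarcc2, a subunit of the SWI/SNF remodeller, had 537, 501 and 432 (CD_CD), 229, 377 and 435 (WD_CD), 200.3, 192 and 195 (CD_WD) and 372, 373 and 333 (WD_WD). It fell by 1.31 log2 in WD offspring with CD mothers (limma adjusted p = 0.0261), changed by 0.10 with WD mothers (adjusted p = 0.858) and had an interaction of 1.41 ± 0.50. Bap1, a deubiquitinase of histone H2A, had 1.60 ± 0.74.

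Imprinted genes are expressed from 1 parental copy in the tissues where the imprint acts, which was not measured here. The 18 listed as imprinted had a median of 0.12 with 9 positive and 9 negative. That median was -0.16 without CD_WD replicate 1 and -0.17 without WD_WD replicate 3. Cd81 and Nap1l4 had -0.87 ± 0.63 and 0.53 ± 0.46. The 19 circadian clock genes had -0.47 (6 positive), with the clock repressor Ciart at -2.24 ± 1.02 and the output factor Tef at -1.59 ± 0.80. Tef fell with both kinds of mother, at -2.71 and -4.29 log2 (limma adjusted p = 0.00777 and 0.000568). The 38 cell cycle and replication genes had -0.18 (13 positive), with Ccnd3, a cyclin of the first gap phase, at -0.91 ± 0.43.

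**Figure D5:**
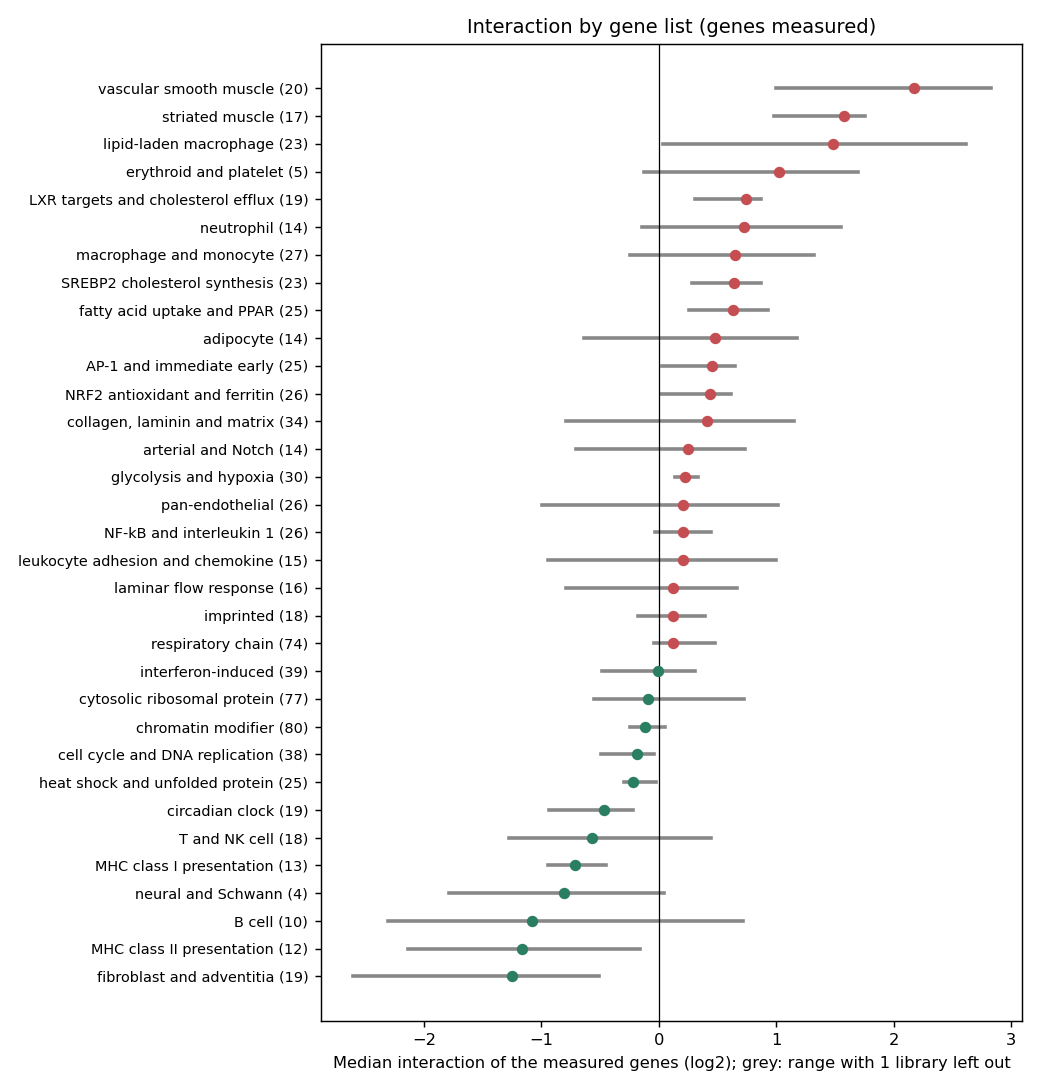
Median interaction (log2) of the measured genes in each of 33 lists, with the number of genes in brackets; points are the medians over all 12 libraries (red positive, green negative) and grey bars the range of medians when 1 library is left out. The smooth muscle list lies highest (2.17) and the fibroblast list lowest (-1.25), and the bar of the pan-endothelial list runs from -0.99 to 1.01.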

How the data were processed

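RNA was measured in 12 libraries. Per the submitters' processing notes, the tools were HISAT2 2.2.1, featureCounts 2.0.1 and DESeq2, with FastQC 0.12.1, Trim Galore 0.6.10 and SAMtools 1.13, and the genome was GRCm38 (mm10). Settings and the use of strand are not recorded there. The authors deposited a normalised signal per gene and library, which is reads divided by a size factor: 100% of 127860 values were whole reads within 0.01, with the lowest value in CD_CD replicate 3 taken as 3 reads. For each effect of the mother's diet the authors deposited a log2 fold change with raw and adjusted p-values.

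From these values log2(value + 1) was fitted with limma 3.58.1 (R 4.3.3), with a mean per group and a mean-variance trend, 8 residual degrees of freedom and Benjamini-Hochberg adjustment over 10655 genes. Fold changes are on that scale and understate the change of low genes. Calls needed an adjusted p under 0.05, and a filter at a mean of 1 removed 0 genes. The script was tested on simulated data. Alternatives were other pseudocounts, filters and scalings, library weights, edgeR 4.0.16, DESeq2 1.42.0, voom, a replicate block and libraries left out. Counting intervals of read ratios cover counting error only. Coordinates are RefSeq's for GRCm38.

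The members and gene lists were chosen with earlier results of these data known. Named are the 12 genes with the smallest interaction p in each direction, the 6 crossed genes with the smallest p in each direction, the 2 of each list with the smallest p, and members of the flow, adhesion and immediate early lists. Some genes that this rule names are not reported here. Other assays of the study were not analysed here.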

Additional observations from a re-analysis of the deposited data

How the results depend on the processing

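The count of 0 interaction calls stayed at 0 to 0 with each library left out. It was 1 with library weights, whose estimation stopped before it converged, and 10 with DESeq2. The 24 genes with the smallest p kept their sign wherever they were tested, with 16 of the 24 tested at a mean of at least 100 and 6 at 10 in every library. Since they were chosen by their p in these same libraries, that kept sign is no test of the interaction. Between the mothers of CD offspring the 0 calls became 3 without the trend, 9 with DESeq2 and 0 to 3 with 1 library left out. Between those of WD offspring the 0 calls became 1 at a pseudocount of 5, 2 with library weights, 14 with DESeq2, 1 without CD_WD replicate 1 and WD_CD replicate 3 together, and 0 to 10 with 1 library left out. Calls for the offspring's diet with CD mothers numbered 4241 with library weights and 698 to 1714 with 1 library left out, and with WD mothers 2319 and 1593 to 3335. With the replicate number as a block the interaction had 0 calls and the effect of the mother's diet within WD offspring 1. Of 18 pairs of libraries with the same number, 0 correlated over 0.1 (-0.23 to 0.07), while pairs with different numbers reached 0.24. A weak pairing could be missed in this way, so whether the numbers pair the libraries was not settled.

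Some genes turned sign. Without CD_WD replicate 1 and WD_CD replicate 3 the interaction was -0.28 for Eng, -0.038 for Erg, -0.11 for Fcgr1, -0.80 for Ppbp, 0.12 for Rps25, -1.33 for Vcam1, -0.17 for Atf3 and -0.68 for Nos3. Library weights gave -0.31 for Ppbp, 0.39 for Rps25, -1.01 for Vcam1, -0.14 for Atf3, -0.087 for Fosl2 and -0.025 for Nos3. In edgeR Vcam1 had -1.01 and Nos3 -0.32, in DESeq2 -0.95 and -0.27, and voom gave -0.093 for Nos3. With 1 library left out the ranges were -0.18 to 1.79 for Eng, -0.13 to 1.81 for Pf4, -0.014 to 3.77 for Ppbp, -2.20 to 0.059 for Rps25, -1.84 to 1.00 for Sele, -0.94 to 0.66 for Icam1, -1.41 to 1.17 for Vcam1, -0.11 to 1.82 for Atf3, -0.10 to 0.67 for Fosl2, -0.93 to 0.072 for Fos, -0.68 to 1.37 for Nos3 and -0.84 to 0.46 for Klf4. The cause was not tested. The number of libraries and, for low genes, the depth in WD offspring limit all values.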

Other observations

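Xist, which silences the inactive X chromosome, had 308 normalised counts or more in all 12 libraries. It was lower in WD offspring, at -1.62 log2 with CD mothers and -1.91 with WD mothers (limma adjusted p = 0.00529 and 0.00162), with an interaction of -0.29 ± 0.44. Genes with 3 reads or fewer in all 3 libraries of a group numbered 7 in WD_CD and 9 in WD_WD, and 0 in CD_CD and CD_WD. The table held 0 genes without reads in CD_CD replicate 3 and 1 in CD_WD replicate 3. Genes silent in CD_CD or CD_WD could therefore hardly appear, and these counts cannot be read as an effect of the mother's diet.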
